A study of Mus musculus with 24 samples.

Results

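The vessels of the mouse brain were followed through 39 genes, of which 29 are known from endothelial cells and 10 from mural cells, the pericytes and smooth muscle cells that wrap the endothelium. A gene was measured where a probe set of the array carried its symbol, and this held for 37 genes (27 endothelial and 10 mural) with 65 probe sets, out of 18193 genes on the array. Ly6c1 had only a probe set shared with Ly6c2, and Ly6a was not analysed here. The mice were wild-type C57BL/6 males, 6 to 8 weeks of age by their labels. The CMS group went through chronic mild stress, a changing schedule of mild stressors on 6 days per week for 4 weeks, and the control group did not. Total RNA came from the prefrontal cortex (PFC), the cerebral cortex (CC), the amygdala (Amy) and the hippocampus (Hippo), and was measured on 24 Affymetrix arrays, 3 per area in CMS mice and 3 per area in control mice. Pooled RNA is named in the study's methods but independent mice elsewhere in it, so p-values may measure only the spread between these samples, which may be technical.

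Brain endothelial cells form the blood-brain barrier. They are joined by tight junctions, carry nutrient carriers and efflux pumps on their surface, and respond to growth factors through receptors of the VEGF and angiopoietin families. Pericytes share the basement membrane of capillaries and depend on PDGF signalling, while smooth muscle cells give arteries and arterioles their contractile proteins. In RNA of whole tissue, fewer cells of a type and less RNA per cell cannot be told apart.

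Values are given on the log2 scale relative to the median of a probe set over the 24 arrays, which is how the table was deposited, so a value of 0 is the middle array and not a background level. Where a gene had several probe sets, their values were averaged. A difference is CMS minus control within an area, with its standard error (SE), from limma fitted to 3 against 3 arrays. A gene rose or fell where the Benjamini-Hochberg adjusted p over all genes was under 0.05. Levels cannot be compared between genes on this scale.

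By count, more endothelial genes rose with CMS in Amy and PFC than in Hippo and CC. The share of all genes that rose also differed between areas, and whether the counts differed beyond it was not tested. In Amy, 13 of 27 rose and 1 fell, beside 10.5% and 8.84% of all genes, and in PFC 10 rose and none fell, beside 4.45% and 3.92%. In CC, 6 rose and 1 fell, beside 5.95% and 3.99%, and in Hippo 6 rose and 2 fell, beside 4.66% and 24.9%. Of the 10 mural genes, 2 rose and 1 fell in Amy, 4 fell in Hippo and 2 rose in CC. In PFC no mural gene passed in limma, with 1 at an unadjusted p under 0.05, 0 by the methods' t-test and 3 with array weights. Leaving out 1 array lowered most of these counts: the endothelial genes called in either direction were then 7 to 11 in Amy (7 or 8 without any array but CMS replicate 1), 1 to 10 in Hippo (1 without control replicate 1 and 2 without CMS replicate 3), 7 to 9 in PFC and 2 to 4 in CC, and the mural genes 2 to 4, 1 to 5, 0 and 0 to 3. Of all genes, 3.47% to 10% then rose in Amy, 1.43% to 5.93% in Hippo, 1.48% to 3.13% in PFC and 2.44% to 5.73% in CC. The shares that fell were 4.37% to 10.1%, 3.61% to 27.6%, 1.27% to 2.51% and 1.06% to 5.79%.

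The median difference of the endothelial genes was 0.32 in Amy, 0.02 in Hippo, 0.14 in PFC and 0.07 in CC. For the mural genes it was 0.22, -0.12, 0.01 and -0.05, and for all genes 0.02, -0.05, 0.02 and -0.03. The difference was above 0 for 24 of 27 endothelial genes in Amy, 14 in Hippo, 20 in PFC and 20 in CC, and for 8, 1, 6 and 3 of the 10 mural genes. Of all 18193 genes it was above 0 for 11549 in Amy, 4945 in Hippo, 11439 in PFC and 6331 in CC, so that a difference above 0 was also common among all genes in Amy and PFC and uncommon in Hippo. All 3 CMS arrays lay above all 3 control arrays for 18 endothelial genes in Amy, 7 in Hippo, 12 in PFC and 9 in CC, beside 39.7%, 8.16%, 35.2% and 14.3% of all genes, and below them for 2, 3, 1 and 2, beside 15.5%, 48.2%, 12.8% and 37.8%. Of the endothelial genes, 2 rose in 2 areas, 4 in 3 areas and 3 in all 4, while 3.77% of all genes rose in at least 2 areas, 0.687% in at least 3 and 0.0989% in all 4. Members that fell did so in 1 area each, while 4.41% of all genes fell in at least 2 areas, 0.654% in at least 3 and 0.137% in all 4. With arrays centred on the median of all genes the endothelial split was 10 higher and 1 lower in Amy, 4 higher in Hippo, 10 higher in PFC and 4 higher in CC. The share of all genes called higher was then 6.9% in Amy, 4.03% in Hippo, 2.98% in PFC and 5.54% in CC. The share called lower was 9.86%, 5.32%, 4% and 2.23%, and 1 mural gene fell in Hippo. The median over the 27 endothelial genes lay higher on each CMS array than on each control array in all 4 areas. In PFC it was 0.38, 0.32 and 0.32 on CMS arrays, against 0.06, 0.08 and 0.15 on control arrays. The median over all genes also lay higher on each CMS array in Amy and PFC, and lower in Hippo and CC. In PFC the median over all genes was -0.002, 0.000 and 0.005 on CMS arrays, against -0.009, -0.012 and -0.028 on control arrays.

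**Figure D1:**
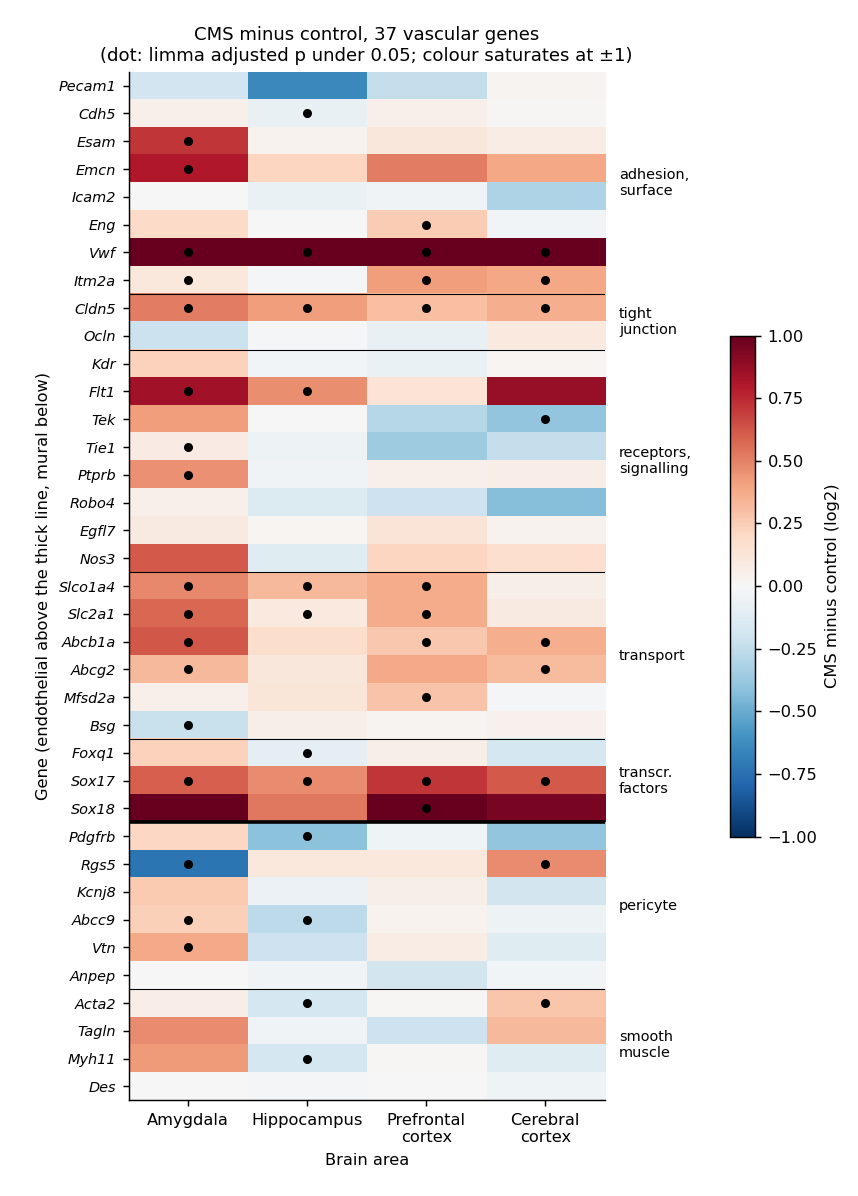
CMS minus control on the log2 scale for 37 vascular genes (rows, endothelial above the thick line and mural below) in 4 brain areas (columns), with a dot where the adjusted p was under 0.05 and the colour saturating at ±1. Vwf, Cldn5 and Sox17 carry a dot in each area, and the mural rows in Hippo are mostly below 0.

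**Figure D2:**
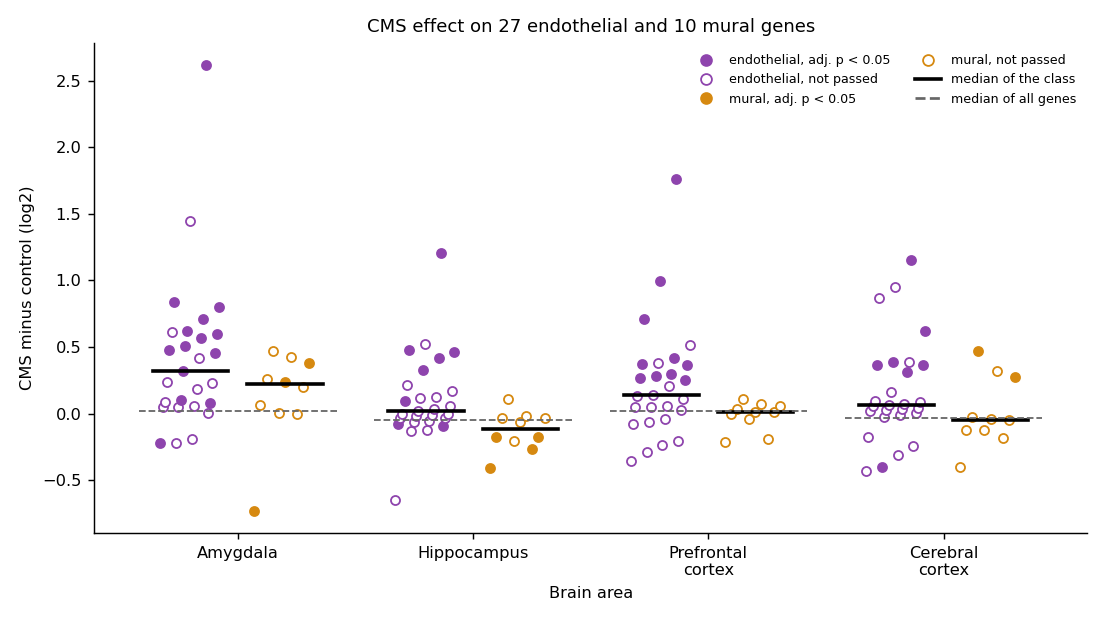
Each point is the CMS minus control difference (log2) of 1 gene in 1 area, filled where it passed, with black bars for the median of 27 endothelial or 10 mural genes and a dashed line for the median of all 18193 genes. The endothelial median is 0.32 in Amy and 0.02 in Hippo, and the mural median is 0.22 and -0.12.

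Among adhesion and surface proteins, Vwf stood out. It encodes von Willebrand factor, the platelet-binding glycoprotein that endothelial cells store and secrete, and it was the member that also passed the 2-fold limit used in the methods, in each of the 4 areas. Higher calls past 2-fold made up 0.143% of all genes in Amy, 0.143% in Hippo, 0.154% in PFC and 0.192% in CC. Lower calls past 2-fold, which held no member, made up 0.44%, 0.11%, 0.0934% and 0.165%. In Amy, Vwf was at 1.56, 1.05 and 1.18 on CMS arrays, against -1.47, -1.28 and -1.32 on control arrays. The groups lay far apart, and the level was 6.14-fold higher with CMS (log2 2.62, SE 0.15, limma adjusted p = 0.00165). In PFC it was at 1.30, 1.20 and 1.40 on CMS arrays, against -0.70, -0.51 and -0.16 on control arrays, a 3.39-fold difference (log2 1.76, SE 0.15, adjusted p = 0.00699). Control replicate 3 was the nearest of these to the CMS arrays. In Hippo, values of 0.68, 0.23 and 0.23 on CMS arrays stood against -0.86, -0.61 and -1.02 on control arrays (2.31-fold, log2 1.21, SE 0.17, adjusted p = 0.0148). The call in Hippo was lost without control replicate 1 (adjusted p = 0.0566).

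In CC, Vwf was at 0.31, 0.46 and 0.16 on CMS arrays, against -0.47, -0.68 and -1.38 on control arrays. The groups did not overlap, but the control arrays were spread widely, and the difference of 2.23-fold passed narrowly (log2 1.16, SE 0.25, adjusted p = 0.0458). It passed without control replicate 3 and did not pass without any other single array (adjusted p 0.0544 to 0.137), nor with centred arrays. Platelets carry von Willebrand factor as well. Of 10 platelet markers, a list added after the data had been seen, 9 were measured, and their median difference was 0.03 in Amy, -0.04 in Hippo, 0.01 in PFC and -0.03 in CC. The highest of them was Pf4, platelet factor 4, at 0.37 in Amy (adjusted p = 0.332).

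Itm2a, a membrane protein that marks brain endothelium, rose in 3 areas, and its arrays lay close together within each group. In PFC it was at 0.31, 0.32 and 0.30 on CMS arrays, against -0.12, -0.11 and -0.08 on control arrays (log2 0.42, SE 0.02, adjusted p = 0.00123). In CC it was at 0.10, 0.12 and 0.11 on CMS arrays, against -0.24, -0.30 and -0.29 on control arrays (log2 0.39, SE 0.03, adjusted p = 0.00232). Both of its probe sets rose in these areas. In Amy the difference was 0.10, with 1 of the 2 probe sets at 0.23 and the other at -0.02, and the call passed without CMS replicate 1 but not without any other single array (adjusted p 0.0565 to 0.0995), nor with quantile normalization, centred arrays or the filter on probe sets of low spread. In Hippo the groups overlapped, at -0.58, -0.59 and -0.58 on CMS arrays, against -0.63, -0.55 and -0.52 on control arrays.

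Emcn, the sialomucin endomucin of veins and capillaries, was at 0.70, 0.68 and 0.55 on CMS arrays in Amy, against -0.02, -0.47 and 0.02 on control arrays (log2 0.80, SE 0.15, adjusted p = 0.0236). It passed without control replicate 2, the lowest array, and not without any other (adjusted p 0.0510 to 0.0707). Esam, an adhesion molecule of endothelial junctions, was at 0.01, -0.01 and 0.02 on CMS arrays in Amy, against -0.83, -0.35 and -0.94 on control arrays (log2 0.71, SE 0.16, adjusted p = 0.0415). Its CMS arrays were nearly equal while the control arrays were spread, and it too passed without control replicate 2 and not without another array (adjusted p 0.0886 to 0.126), nor with quantile normalization or centred arrays. Eng, the TGF-beta co-receptor endoglin, rose by 0.25 in PFC, where neither of its 2 probe sets passed alone (0.20 and 0.30), and it did not pass without CMS replicate 1, 2 or 3 or control replicate 3 (adjusted p 0.0725 to 0.0913). Cdh5, the VE-cadherin of endothelial junctions, fell by 0.07 in Hippo. This call was lost with centred arrays and without every array but control replicate 3 (adjusted p 0.0571 to 0.101). Pecam1, a platelet and endothelial adhesion molecule, and Icam2, a ligand of leukocyte integrins, did not pass in any area. The differences of Pecam1 ran from -0.65 in Hippo (adjusted p = 0.163) to 0.03 in CC, and those of Icam2 from -0.31 in CC to 0.00 in Amy.

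Of the tight junction genes, Cldn5 rose in all 4 areas and Ocln in none. Cldn5 encodes claudin-5, the main claudin of the blood-brain barrier. In PFC, its highest area, it was at 1.08, 1.12 and 1.03 on CMS arrays, against 0.75, 0.82 and 0.77 on control arrays (log2 0.30, SE 0.03, adjusted p = 0.0109), and this call held without each array in turn. In CC it was at 0.33, 0.21 and 0.25 on CMS arrays, against -0.09, -0.02 and -0.19 on control arrays (log2 0.37, SE 0.06, adjusted p = 0.0195). In both cortical areas the groups did not overlap, and in CC the call was lost without any CMS array or control replicate 1 (adjusted p 0.0548 to 0.0692). In Hippo, Cldn5 was at -0.06, -0.05 and 0.06 on CMS arrays, against -0.29, -0.65 and -0.36 on control arrays (log2 0.41, SE 0.10, adjusted p = 0.0420). In Amy it was at 0.16, -0.06 and 0.02 on CMS arrays, against -0.37, -0.70 and -0.34 on control arrays (log2 0.51, SE 0.12, adjusted p = 0.0458). The calls in Amy and Hippo stood near the threshold, and each was lost with centred arrays and without any 1 array (adjusted p 0.0633 to 0.0986 in Amy and 0.0502 to 0.125 in Hippo). Ocln, the junction protein occludin, which epithelia also carry, ran from -0.22 in Amy (adjusted p = 0.134) to 0.10 in CC (adjusted p = 0.0996).

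**Figure D3:**
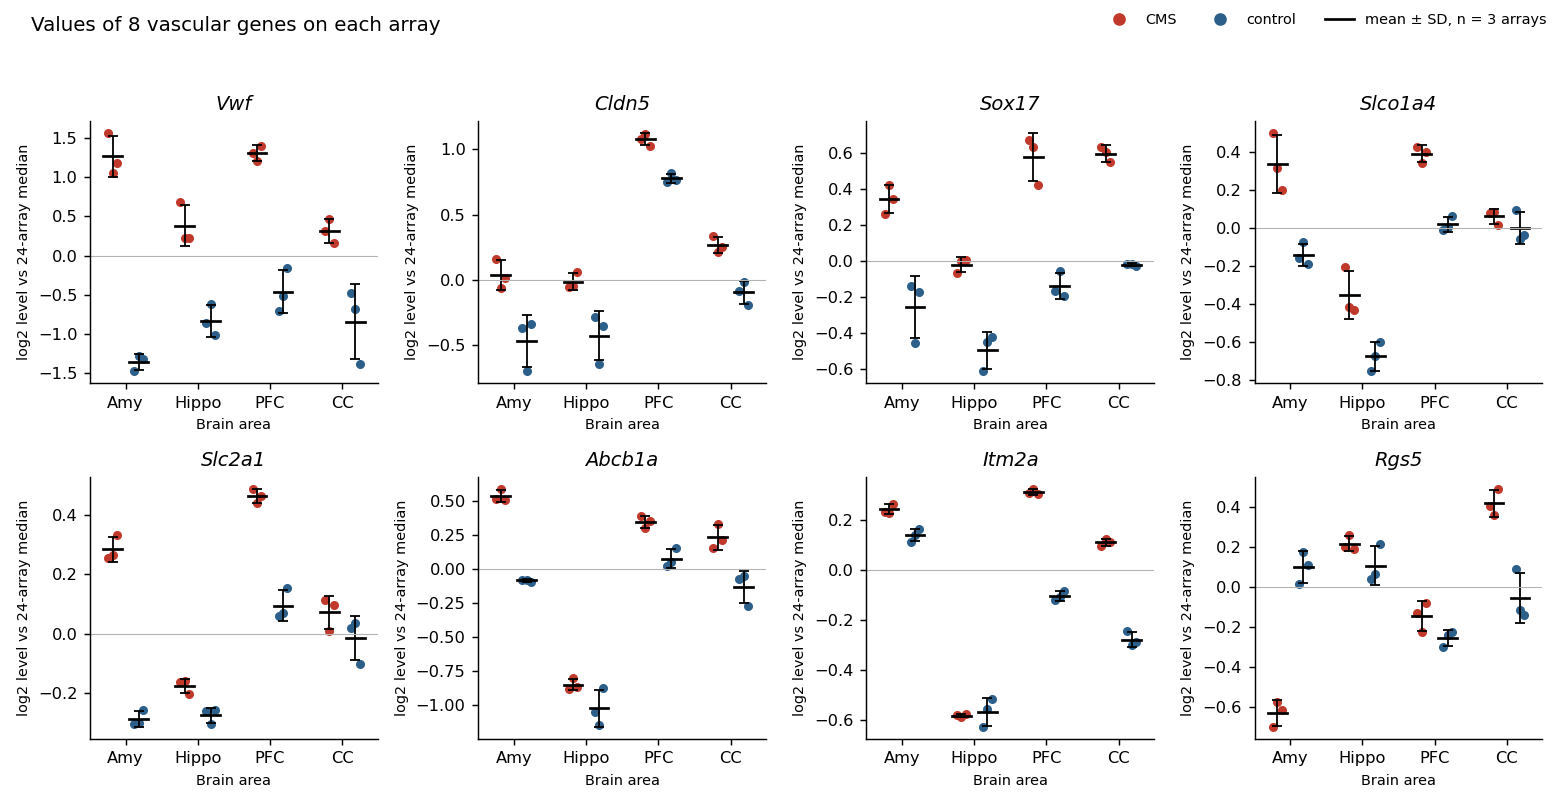
Values of 8 genes on each array (log2 relative to the 24-array median), CMS left of control in each area, with the mean and SD of 3 arrays. Vwf, Cldn5 and Sox17 lie higher in CMS without overlap in each area, Itm2a overlaps in Hippo, and Rgs5 lies lower in CMS in Amy and higher in CC.

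Of the 6 carriers and pumps of the barrier, 4 rose and 1 fell in Amy, beside 10.5% and 8.84% of all genes. In PFC 4 rose, beside 4.45%, and 2 rose in both Hippo (4.66%) and CC (5.95%). Slc2a1, the glucose transporter GLUT1, was at 0.26, 0.27 and 0.33 on CMS arrays in Amy, against -0.30, -0.30 and -0.26 on control arrays (log2 0.57, SE 0.03, adjusted p = 0.00133). In PFC it was at 0.49, 0.44 and 0.46 on CMS arrays, against 0.06, 0.07 and 0.15 on control arrays (log2 0.37, SE 0.03, adjusted p = 0.00721). All 3 of its probe sets rose in both areas. In Hippo it rose by 0.10, a call that was lost without every array but control replicate 3 (adjusted p 0.0660 to 0.0914), and in CC the difference was 0.09 with overlapping arrays.

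Abcb1a encodes the efflux pump P-glycoprotein. In Amy it was at 0.51, 0.59 and 0.50 on CMS arrays, against -0.08, -0.08 and -0.10 on control arrays (log2 0.62, SE 0.03, adjusted p = 0.00109), and both probe sets rose. In PFC it rose by 0.27 (adjusted p = 0.0265) and in CC by 0.37 (adjusted p = 0.0433), each through 1 of the 2 probe sets. The call in PFC passed without control replicate 3 and not without another array (adjusted p 0.0593 to 0.0834), and that in CC was lost with centred arrays and without any 1 array (adjusted p 0.0593 to 0.121). Slco1a4, an organic anion carrier of the barrier, was at 0.43, 0.35 and 0.40 on CMS arrays in PFC, against -0.01, 0.01 and 0.06 on control arrays (log2 0.37, SE 0.03, adjusted p = 0.00721). In Hippo it was at -0.20, -0.41 and -0.43 on CMS arrays, against -0.75, -0.67 and -0.60 on control arrays (log2 0.33, SE 0.08, adjusted p = 0.0374). In Amy it rose by 0.48 (adjusted p = 0.0220), and in CC the groups overlapped at a difference of 0.06. Its call in Hippo passed without control replicate 3 and not without another array (adjusted p 0.0615 to 0.110) nor with centred arrays, and that in Amy was lost without CMS replicate 2 or any control array (adjusted p 0.0615 to 0.0829).

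Abcg2, the second efflux pump of the list, rose by 0.32 in both Amy (adjusted p = 0.0214) and CC (adjusted p = 0.0334), and had 0.38 in PFC (adjusted p = 0.0658). The call in Amy was lost without CMS replicate 1 or 3 or control replicate 2 (adjusted p 0.0532 to 0.0712), and that in CC without every array but CMS replicate 2 (adjusted p 0.0639 to 0.110). Mfsd2a, a carrier of lysophospholipids with docosahexaenoic acid, rose by 0.28 in PFC (adjusted p = 0.0163), a call lost without CMS replicate 1 or 3 or control replicate 2 (adjusted p 0.0552 to 0.0564). Bsg, the glycoprotein basigin that accompanies lactate carriers, was the transport gene that fell, by 0.22 in Amy (SE 0.05, adjusted p = 0.0369), and its call was lost without every array but CMS replicate 1 (adjusted p 0.0735 to 0.120).

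The promoters of the genes that rose in at least 3 areas are shown because these members were called higher most often, although not all in the same areas. There were 7 such genes, and 5 of them were in the RefSeq table used (build GRCm38.p6), as were 23 of the 37 measured members. Each sequence runs from 250 bases before to 50 bases after the transcription start, on the strand of the gene. Capitals mark matches, on either strand, to GGAA, the core letters bound by ETS factors, to ACAAT, letters bound by SOX factors, or to AGAACA, a half-site of the glucocorticoid receptor. The windows lie at chr16:18776597-18776896 (+) for Cldn5, chr4:119108495-119108794 (+) for Slc2a1, chr5:8566841-8567140 (+) for Abcb1a, chr6:141856171-141856470 (-) for Slco1a4 and chrX:107403311-107403610 (-) for Itm2a.
Cldn5: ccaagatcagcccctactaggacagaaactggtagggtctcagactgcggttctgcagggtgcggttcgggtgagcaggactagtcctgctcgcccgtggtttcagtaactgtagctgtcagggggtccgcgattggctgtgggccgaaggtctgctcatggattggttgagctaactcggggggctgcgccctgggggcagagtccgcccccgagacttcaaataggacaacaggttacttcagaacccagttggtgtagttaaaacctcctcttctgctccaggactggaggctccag
Slc2a1: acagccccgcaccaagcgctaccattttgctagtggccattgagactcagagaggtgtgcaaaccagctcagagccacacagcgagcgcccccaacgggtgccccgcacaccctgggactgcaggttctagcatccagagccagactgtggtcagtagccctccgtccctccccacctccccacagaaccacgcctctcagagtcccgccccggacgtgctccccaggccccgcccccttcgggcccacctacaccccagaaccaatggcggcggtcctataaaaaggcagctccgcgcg
Abcb1a: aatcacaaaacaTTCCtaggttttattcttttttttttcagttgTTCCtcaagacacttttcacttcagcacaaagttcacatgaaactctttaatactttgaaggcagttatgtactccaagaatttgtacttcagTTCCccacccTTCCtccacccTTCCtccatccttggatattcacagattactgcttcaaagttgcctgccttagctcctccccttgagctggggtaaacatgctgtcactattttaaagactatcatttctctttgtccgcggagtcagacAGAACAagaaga
Slco1a4: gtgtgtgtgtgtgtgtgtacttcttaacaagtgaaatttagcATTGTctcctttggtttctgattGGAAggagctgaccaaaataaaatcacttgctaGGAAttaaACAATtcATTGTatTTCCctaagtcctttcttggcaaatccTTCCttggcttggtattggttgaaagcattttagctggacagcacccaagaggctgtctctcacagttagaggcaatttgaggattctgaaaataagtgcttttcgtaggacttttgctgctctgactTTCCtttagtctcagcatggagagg
Itm2a: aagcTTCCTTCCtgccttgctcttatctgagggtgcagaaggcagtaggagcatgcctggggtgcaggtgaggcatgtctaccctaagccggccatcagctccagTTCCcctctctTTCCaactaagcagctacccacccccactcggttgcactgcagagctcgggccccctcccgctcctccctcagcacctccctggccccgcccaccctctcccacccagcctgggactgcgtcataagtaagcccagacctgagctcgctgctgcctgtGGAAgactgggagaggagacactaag

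The windows of Cldn5 and Slc2a1 held none of the 3 motifs. Those of Abcb1a, Slco1a4 and Itm2a held 5 GGAA matches each, and GGAA was present in 96% of 32851 promoters of that length and in 21 of the 23 members. ACAAT stood 3 times in Slco1a4 alone of the 5, beside 31% of all promoters and 7 of the 23 members. AGAACA stood once in Abcb1a, beside 19% of all promoters and 5 of the 23 members. A match is a run of letters and not a measured site.

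Sox17 and Sox18 are transcription factors of the SOXF group that take part in vessel formation, and Foxq1 is a forkhead factor found in brain endothelium. Sox17 rose in all 4 areas. In CC it was at 0.64, 0.61 and 0.55 on CMS arrays, against -0.01, -0.02 and -0.03 on control arrays (log2 0.62, SE 0.03, adjusted p = 0.00101). In PFC it was at 0.67, 0.63 and 0.42 on CMS arrays, against -0.17, -0.05 and -0.19 on control arrays (log2 0.71, SE 0.08, adjusted p = 0.0110). Its groups were apart in each area. In Hippo it was at -0.07, 0.00 and 0.01 on CMS arrays, against -0.61, -0.45 and -0.42 on control arrays (log2 0.48, SE 0.06, adjusted p = 0.0116), and in Amy it rose by 0.60 (adjusted p = 0.0184). In Amy the call was lost without CMS replicate 2 or 3 or control replicate 3 (adjusted p 0.0519 to 0.0566). The rise was carried by 1 of its 2 probe sets, which has the suffix _x_at, with 1.03 in Amy, 0.91 in Hippo, 1.13 in PFC and 1.03 in CC. The other probe set had 0.17, 0.04, 0.29 and 0.20 and did not pass in any area, and the suffix _x_at marks probes that can bind other transcripts. Without such probe sets Sox17 passed in no area.

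Sox18 differed by more than Sox17 but its arrays were spread more widely. In PFC it was at 0.38, 0.42 and 0.41 on CMS arrays, against -0.67, -0.75 and -0.36 on control arrays (log2 1.00, SE 0.10, adjusted p = 0.0107), just under 2-fold. In Amy it was at 0.71, -0.09 and 0.15 on CMS arrays, against -1.86, -0.84 and -0.87 on control arrays (log2 1.45, SE 0.37, adjusted p = 0.0540). The CMS arrays lay above the control arrays in Hippo and CC too, with differences of 0.52 (adjusted p = 0.0613) and 0.95 (adjusted p = 0.0579), which did not pass. Foxq1 fell by 0.09 in Hippo (adjusted p = 0.0142), a call lost with centred arrays and without CMS replicate 3 or control replicate 1 or 2 (adjusted p 0.0524 to 0.0578), and ran from -0.17 in CC to 0.23 in Amy elsewhere without passing.

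Of the 8 receptors and signalling genes, 3 rose in Amy, where 10.5% of all genes rose, 1 rose in Hippo (4.66%) and 1 fell in CC (3.99%). Flt1, VEGF receptor 1, was at 0.27, 0.56 and 0.24 on CMS arrays in Amy, against -0.63, -0.40 and -0.42 on control arrays (log2 0.84, SE 0.11, adjusted p = 0.0112). In Hippo it was at -0.36, -0.51 and -0.36 on CMS arrays, against -0.89, -0.94 and -0.77 on control arrays (log2 0.46, SE 0.06, adjusted p = 0.0146). The groups did not overlap in CC either, at a difference of 0.87 (SE 0.22, adjusted p = 0.0740). Its 4 probe sets differed: in Hippo the call came from 1 of them at 1.64, with the other 3 between -0.07 and 0.25, while in Amy all 4 lay between 0.56 and 0.95 and 1 passed alone. With the most variable probe set in place of the mean the call in Amy was lost. The call in Hippo was lost without CMS replicate 3 (adjusted p = 0.0557) or control replicate 1 (adjusted p = 0.0560).

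Ptprb, the phosphatase VE-PTP that acts on the angiopoietin receptor, rose by 0.46 in Amy (SE 0.05, adjusted p = 0.00812), with 1 of its 3 probe sets at 0.84 and a call that was lost with the most variable probe set in place of the mean. Tie1, an orphan partner of that receptor, rose in Amy by 0.08 (adjusted p = 0.0138), a small difference between very even arrays that was lost without control replicate 1 (adjusted p = 0.0568) or 2 (adjusted p = 0.0674). Tek, the angiopoietin receptor TIE2, fell in CC, at -0.04, -0.26 and -0.01 on CMS arrays, against 0.25, 0.37 and 0.27 on control arrays (log2 -0.40, SE 0.08, adjusted p = 0.0344). In Amy the difference of Tek had the other sign, 0.42 (adjusted p = 0.144), and in PFC it was -0.29 (adjusted p = 0.0793), with no overlap in either. The call in CC was lost with centred arrays and without every array but CMS replicate 2 (adjusted p 0.0639 to 0.0965). Kdr, VEGF receptor 2, Robo4, Egfl7 and Nos3, the endothelial nitric oxide synthase, did not pass in any area, with differences from -0.43 for Robo4 in CC (adjusted p = 0.0629) to 0.61 for Nos3 in Amy (adjusted p = 0.204).

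**Figure D4:**
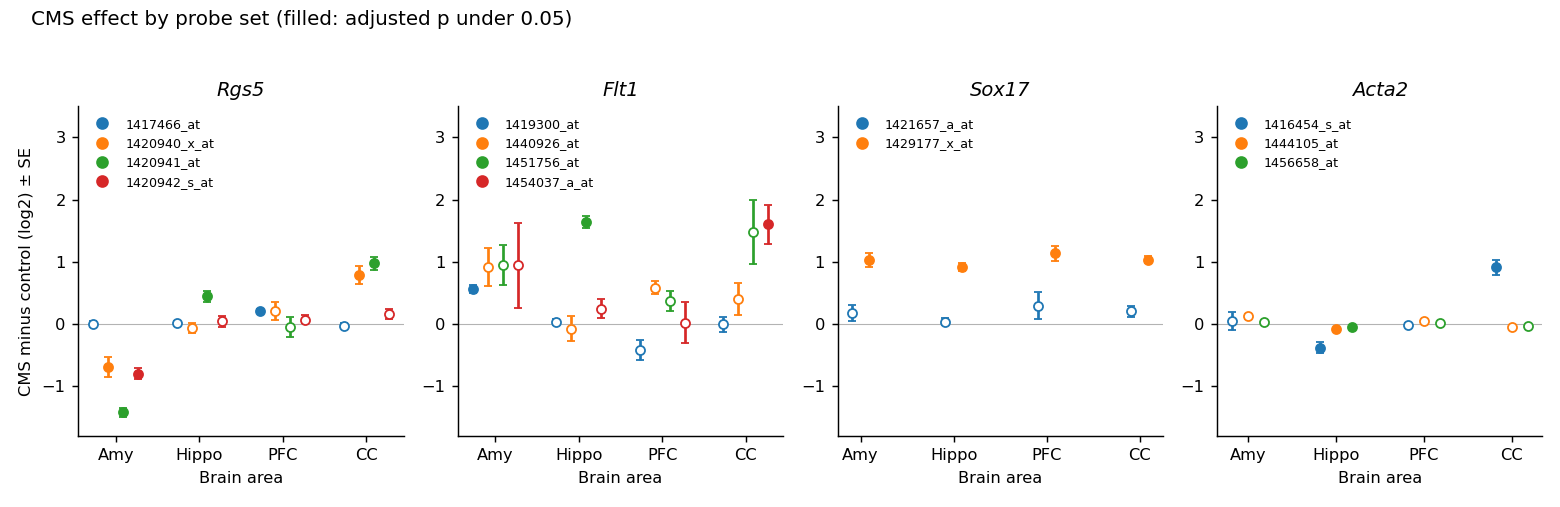
CMS minus control (log2, with SE, 3 against 3 arrays) for each probe set of Rgs5, Flt1, Sox17 and Acta2 in 4 areas, filled where the adjusted p was under 0.05. 1 of 2 Sox17 probe sets lies near 1 in each area, and 3 of 4 Rgs5 probe sets fell in Amy.

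Of the 6 pericyte genes, 2 rose and 1 fell in Amy, beside 10.5% and 8.84% of all genes, 2 fell in Hippo, near the 24.9% of all genes that fell there, and 1 rose in CC (5.95%). Rgs5, a regulator of G-protein signalling that marks brain pericytes, was the mural gene that differed most. In Amy it was at -0.70, -0.58 and -0.62 on CMS arrays, against 0.02, 0.17 and 0.11 on control arrays, so that it fell by 0.73 (SE 0.05, adjusted p = 0.00277). In CC it was at 0.40, 0.36 and 0.49 on CMS arrays, against 0.09, -0.11 and -0.14 on control arrays, and it rose by 0.47 (SE 0.07, adjusted p = 0.0193). The groups did not overlap in either area, and the call in CC was lost without any CMS array or control replicate 2 (adjusted p 0.0560 to 0.0679). In Hippo and PFC the differences were 0.11 each and did not pass. In Amy 3 of the 4 probe sets fell, with differences of -0.70, -1.42 and -0.80, and the other did not pass. In CC the 2 that rose had 0.79 and 0.97.

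Pdgfrb, the receptor through which PDGF-B from the endothelium holds pericytes at the vessel, fell in Hippo. It was at -0.33, -0.31 and -0.32 on CMS arrays, against -0.02, -0.01 and 0.29 on control arrays (log2 -0.41, SE 0.09, adjusted p = 0.0335). The CMS arrays were nearly equal and control replicate 3 stood apart. The call passed without control replicate 3 and not without another array (adjusted p 0.0700 to 0.102), nor with centred arrays, and came from 1 of 2 probe sets (-0.60 and -0.22). Abcc9, the sulfonylurea receptor subunit of the potassium channel of pericytes, rose by 0.24 in Amy (adjusted p = 0.00791) and fell by 0.27 in Hippo (adjusted p = 0.0227), the second a call lost with centred arrays and without CMS replicate 2 or control replicate 1 or 2 (adjusted p 0.0616 to 0.0737). In each of these areas 1 of its 3 probe sets passed alone. In Amy they ran from 0.03 to 0.55, and the call was lost without _x_at and _s_at probe sets. Vtn, the matrix protein vitronectin that brain pericytes secrete, rose by 0.38 in Amy (SE 0.05, adjusted p = 0.0124), lost without control replicate 2 (adjusted p = 0.0549) or 3 (adjusted p = 0.0528), and had -0.20 in Hippo (adjusted p = 0.0598). Kcnj8, the pore subunit that Abcc9 joins, had 0.26 in Amy, -0.06 in Hippo, 0.06 in PFC and -0.18 in CC, and Anpep, the peptidase CD13, ran from -0.19 in PFC to 0.00 in Amy. Neither passed in any area.

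Of the 4 smooth muscle genes, 2 fell in Hippo, where 24.9% of all genes fell, and 1 rose in CC, where 5.95% rose. Acta2, smooth muscle actin, was at -0.05, -0.03 and 0.01 on CMS arrays in Hippo, against 0.13, 0.12 and 0.19 on control arrays (log2 -0.17, SE 0.03, adjusted p = 0.0194). In CC it was at 0.01, 0.03 and -0.05 on CMS arrays, against -0.27, -0.24 and -0.32 on control arrays (log2 0.27, SE 0.03, adjusted p = 0.0116). The rise in CC came from 1 probe set, with the suffix _s_at, at 0.91, while the other 2 were at -0.05 and -0.03; without probe sets of the suffixes _x_at and _s_at the difference in CC was -0.04. All 3 probe sets fell in Hippo, a call lost with centred arrays and without every array but control replicate 3 (adjusted p 0.0507 to 0.0638), and the call in CC was lost without CMS replicate 1 (adjusted p = 0.0538) or 2 (adjusted p = 0.0530). Myh11, smooth muscle myosin, fell by 0.18 in Hippo (SE 0.02, adjusted p = 0.00725) and was at 0.42 in Amy (adjusted p = 0.151). Tagln, an actin-binding protein of smooth muscle, ran from -0.21 in PFC to 0.47 in Amy (adjusted p = 0.206) and Des, the intermediate filament desmin, from -0.04 in CC to 0.00, without passing.

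Whether the effect of CMS differed between the areas was tested in 1 fit of all 24 arrays. It differed for 11 of the 27 endothelial and 7 of the 10 mural genes, beside 52.3% of all genes. The lowest adjusted p belonged to Itm2a (2.31e-08), whose differences were 0.10 in Amy, -0.02 in Hippo, 0.42 in PFC and 0.39 in CC, and to Rgs5 (7.77e-08). Slc2a1 (1.48e-06) had 0.57 in Amy and 0.37 in PFC beside 0.10 in Hippo and 0.09 in CC, and Acta2 (5.42e-05) had 0.07 in Amy, -0.17 in Hippo, 0.01 in PFC and 0.27 in CC. Vwf differed as well (adjusted p = 0.00144), with differences of 2.62 in Amy and 1.16 in CC at the ends of the range. For Cldn5 (adjusted p = 0.522), Sox17 (0.275) and Sox18 (0.182) the effects in the 4 areas were not distinguishable by this test.

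Without stress, most endothelial genes had their highest mean in PFC. Among the control arrays, 22 of 27 endothelial and 6 of 10 mural genes differed between areas, beside 58.1% of all genes (limma F test). The mean of 18 endothelial genes was highest in PFC, that of 12 was lowest in Amy and that of 12 lowest in Hippo. Of the 18, 15 were genes that differed between areas. How many of all genes were highest in PFC was not counted. Cldn5 averaged -0.47 in Amy, -0.43 in Hippo, 0.78 in PFC and -0.10 in CC (n = 3 control arrays each, adjusted p = 1.74e-05). Abcb1a had its lowest mean in Hippo, 1.10 below its highest in PFC (adjusted p = 2.92e-06), while Ocln had its highest mean in Hippo (adjusted p = 1.05e-07). The mural genes had no common area: Tagln (adjusted p = 8.47e-06) and Acta2 (adjusted p = 9.82e-08) were highest in Amy, Vtn (adjusted p = 8.77e-07) in PFC, and Kcnj8 and Abcc9 in CC. On control arrays the poly-A controls, RNA added before labelling, averaged -4.52 in Hippo, against 0.42 in Amy, -0.61 in PFC and 0.53 in CC. The hybridisation controls, RNA added before hybridisation, averaged -1.11 in Hippo, against 0.01, -0.17 and 0.15. Their part in the differences between areas was not tested.

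**Figure D5:**
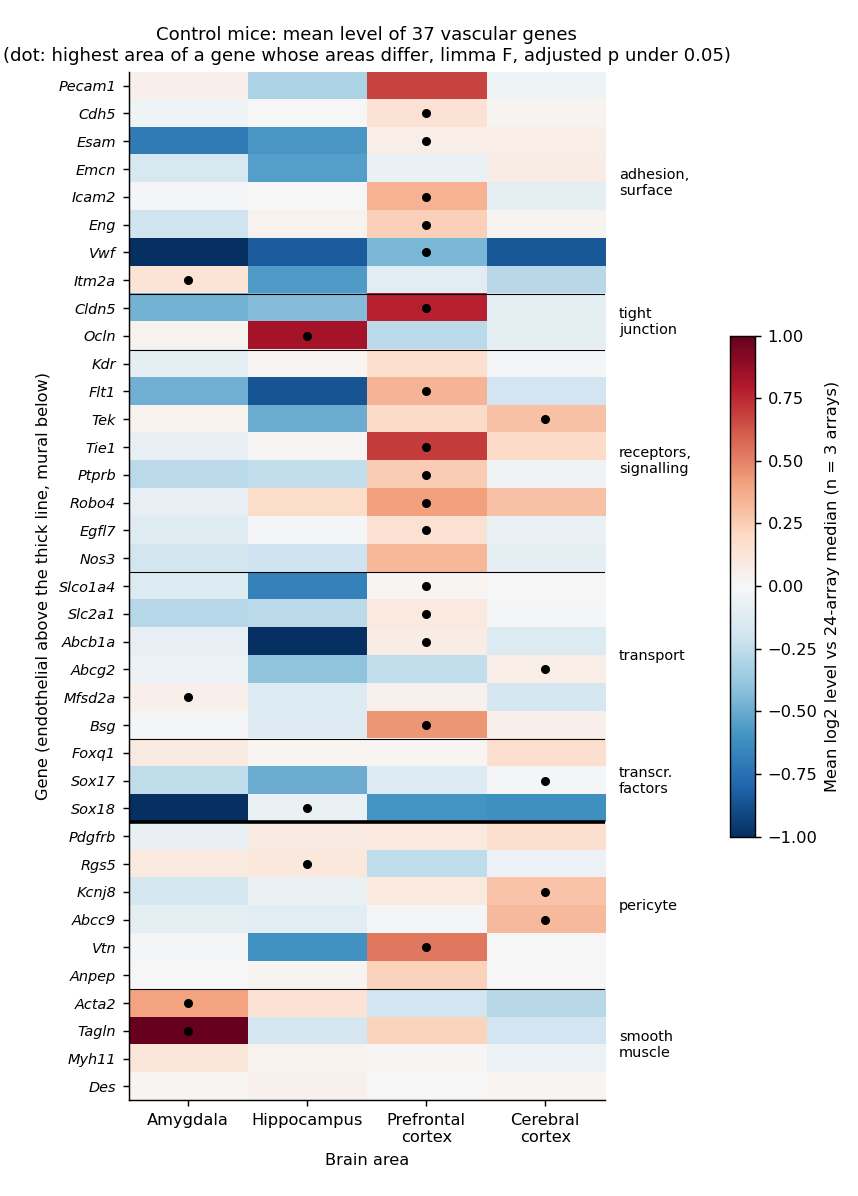
Mean level of each gene on the 3 control arrays of an area (log2 relative to the 24-array median, colour saturating at ±1), with a dot on the highest area where the areas differed. Of 27 endothelial genes, 18 have their highest mean in PFC, 15 of them with a dot.

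Other genes of vessel biology were read from lists of related genes, whose counts stand beside shares of all genes that rose and fell of 10.5% and 8.84% in Amy, 4.66% and 24.9% in Hippo, 4.45% and 3.92% in PFC and 5.95% and 3.99% in CC. Of 12 genes of barrier Wnt signalling, 3 rose and 1 fell in Amy, 1 rose and 6 fell in Hippo and 1 rose in CC. Reck, part of the receptor complex for Wnt7 ligands, rose by 0.89 in Amy (adjusted p = 0.00324) and fell by 0.26 in Hippo (adjusted p = 0.0170). Of 22 other barrier transporters, 2 rose and 2 fell in Amy, 3 and 4 in Hippo, 2 and 0 in PFC and 3 and 1 in CC. Tfrc, the transferrin receptor, rose by 0.69 in Hippo (adjusted p = 0.00742), 0.51 in PFC (adjusted p = 0.0167) and 1.00 in CC (adjusted p = 0.00365) and fell by 0.55 in Amy (adjusted p = 0.00588). Among 16 arterial and venous genes, 3 rose and 2 fell in Amy, 1 rose and 2 fell in Hippo, 3 rose and 1 fell in PFC and 1 rose in CC. Mgp, matrix Gla protein, rose by 0.92 in Amy (adjusted p = 0.00314), 0.34 in PFC (adjusted p = 0.0134) and 1.25 in CC (adjusted p = 0.000302), and Hey2, a Notch target of arteries, by 0.72 in PFC (adjusted p = 0.00699).

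Of 19 vascular growth factors, 3 rose and 3 fell in Amy, 4 fell in Hippo, and 1 fell each in PFC and CC. Vegfc, a ligand of VEGF receptor 3, rose by 0.30 in Amy (adjusted p = 0.00232) and fell by 0.33 in Hippo (adjusted p = 0.0135). Of 21 transcription factors and Notch genes of endothelium, 2 rose and 2 fell in Amy, 2 fell in Hippo, 1 rose and 1 fell in PFC and 2 rose in CC, with Foxc1, a forkhead factor of vessels and meninges, at 0.85 in Amy (adjusted p = 0.00939) and 0.56 in CC (adjusted p = 0.0438), and Klf2, a factor induced by blood flow, at -0.84 in PFC (adjusted p = 0.0143). Of 28 other mural genes, 5 rose and 1 fell in Amy, 2 rose and 8 fell in Hippo, 2 fell in PFC and 1 rose in CC. Ednrb, an endothelin receptor that astrocytes also carry, fell by 1.06 in Amy (adjusted p = 0.00156) and rose by 0.46 in CC (adjusted p = 0.00354). Of 11 leukocyte adhesion genes, 1 rose and 2 fell in Amy, 1 rose and 4 fell in Hippo and 2 fell in CC, of 14 other junction proteins 2 rose in Amy, 2 fell in Hippo, 2 rose in PFC and 1 fell in CC, and of 15 basement membrane genes 2 rose and 2 fell in Amy, 3 rose and 2 fell in Hippo, 2 fell in PFC and 2 rose in CC.

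Markers of other cells and properties of the arrays moved with CMS too, and their part in the results was not tested. Of all genes, 10.5% rose and 8.84% fell in Amy, and 4.66% and 24.9% in Hippo. In PFC the shares were 4.45% and 3.92%, and in CC 5.95% and 3.99%. Of 12 neuron markers, 5 rose and 2 fell in Amy, 5 and 1 in Hippo, 1 and 1 in PFC and 3 and 2 in CC. Of 12 microglia and macrophage markers, 1 rose in Amy, 3 fell in Hippo and 2 rose and 1 fell in CC. In Amy, 10 of 11 oligodendrocyte markers and 5 of 11 astrocyte markers fell, while in CC 8 of 11 oligodendrocyte and 4 of 11 astrocyte markers rose. In Hippo, 2 oligodendrocyte markers rose and 4 fell, and 4 astrocyte markers fell. In PFC, 1 astrocyte marker rose and 3 fell. Of 12 meningeal and perivascular fibroblast markers, 5 rose and 1 fell in Amy, 3 and 3 in PFC and 3 and 1 in CC. Of 5 red blood cell markers, 2 rose in both Amy and PFC, 1 rose in CC and 2 fell in Hippo. The mean of these 5 ran from 0.28 to 0.38 on CMS arrays in PFC, against -0.04 to -0.01 on control arrays. In PFC, 7 of the 11 oligodendrocyte markers fell, with means from -0.41 to -0.39 on CMS arrays, against -0.22 to -0.15 on control arrays. The mean of the oligodendrocyte markers ran from -0.47 to -0.44 on CMS arrays in Amy, against 0.04 to 0.10 on control arrays. In Hippo, where 24.9% of all genes fell, 5 of the 12 fibroblast markers fell, with means from -0.64 to -0.63 on CMS arrays, against -0.46 to -0.33 on control arrays. Choroid plexus markers fell in CC (10 of 10) and PFC (5 of 10), and in PFC all 7 neutrophil markers rose, their mean running from 4.39 to 4.51 on CMS arrays, against 0.92 to 1.04 on control arrays. Of the 10 choroid plexus markers, 3 rose and 1 fell in Amy and 2 rose in Hippo. Of the 7 neutrophil markers, 2 rose in both Amy and CC, and 1 rose and 1 fell in Hippo. The mean of 8 hippocampus markers ran from -0.57 to -0.36 on CMS arrays in Amy, against 0.31 to 0.35 on control arrays. These markers stood at 3.80 to 4.07 on the arrays labelled Hippo and at no more than 0.35 elsewhere. The mean of 5 amygdala markers ran from 0.44 to 0.53 on CMS arrays in Amy, against 0.82 to 0.92 on control arrays. Of these 5 markers, 3 fell in Amy and 0 rose. In Hippo their mean ran from 0.29 to 0.55. Of 6 neocortex markers, 3 rose and 1 fell in Amy. The hybridisation controls, RNA added before hybridisation, averaged 0.82 on CMS arrays in Amy, against 0.01 on control arrays, and -1.48 on CMS arrays in Hippo, against -1.11 on control arrays. In PFC they averaged 0.14 on CMS arrays, against -0.17 on control arrays, and the poly-A controls, RNA added before labelling, 0.04 on CMS arrays, against -0.61 on control arrays. The 3' minus 5' difference of actin averaged -0.41 on CMS arrays in CC, against 0.19 on control arrays, and -0.07 on CMS arrays in PFC, against 0.13 on control arrays. The poly-A controls in CC averaged 0.04 on CMS arrays, against 0.53 on control arrays. Control replicate 3 in CC correlated with control replicates 1 and 2 at 0.75 and 0.74, against 0.87 between replicates 1 and 2.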

How the data were processed

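Total RNA was hybridised to Affymetrix arrays of the mouse genome. The deposited log2 values were made by the authors with GCRMA in GeneSpring GX and a baseline normalization, with no version given in the sources used here; probe sets were centred to a median of 0 over the 24 arrays, so absolute levels and brightness are not known from the table. Of 45101 probe sets, 64 controls were left out, and 34945 had 1 symbol in the platform annotation, 932 several and 9160 none. Only probe sets of 1 symbol were averaged, to 18193 genes. CMS was compared with control within each area with limma 3.58.1 (R 4.3.3), two-sided, with Benjamini-Hochberg adjustment over all genes, as in the methods' separate comparisons. Differences of the effect between areas, and between control areas, were tested with limma F tests. The number of arrays, 3 per group, limits the precision. No identical arrays were found. The fits were tested on simulated data.

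The genes, the lists and the tests were chosen with earlier results of these data known. Members are all accounted for by count and range. Values on each array are given for those past 2-fold, and for up to 6 per area with the largest differences among those that passed without overlap; further members and genes of related lists were named by size among those that passed. Names outside this rule, among them members that did not pass, Pf4 and the platelet list, were chosen after their values were seen. Alternatives were quantile normalization, centring, a filter on low spread, the most variable probe set per gene, leaving out probe sets with suffixes of cross-hybridisation, the methods' t-test, 1 fit of all arrays, a replicate block, array weights, limma's options for a trend and for robust fits, and leaving out each array. Promoter sequences came from RefSeq.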

Additional observations from a re-analysis of the deposited data

Results flagged for a closer look

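The effect of CMS differed between the 4 areas for 18 of the 37 measured members (limma F test, adjusted over all genes), beside 52.3% of all genes. Such a difference was thus no more common among the members than among all genes. The adjusted p was 2.31e-08 for Itm2a, 7.77e-08 for Rgs5, 1.48e-06 for Slc2a1, 5.42e-05 for Acta2, 0.000137 for Vtn and 0.00133 for Abcc9. It was 0.00144 for Vwf, 0.00349 for Abcb1a, 0.00536 for Ptprb, 0.00728 for Tek, 0.00828 for Bsg and 0.0104 for Slco1a4. It was 0.0135 for Myh11, 0.0153 for Pdgfrb, 0.0256 for Esam, 0.0307 for Flt1, 0.0337 for Tagln and 0.0440 for Mfsd2a. Tagln passed in no single area.

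A probe set shared by Ly6c1, an endothelial surface protein, and its relative Ly6c2 was outside the comparisons because it names more than 1 gene. It was higher in CMS by 0.22 in Amy, 0.28 in Hippo and 0.36 in PFC on the log2 scale (limma adjusted p under 0.05 in each). Of all probe sets, 11.4%, 5.68% and 2.78% were called higher in these areas. In CC the arrays overlapped at a difference of 0.16 (limma adjusted p = 0.348). Which of the genes the probe set measured cannot be told apart.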

How the results depend on the processing

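Of the 48 calls of members in an area, 7 were kept under every alternative: Vwf in Amy and PFC, Slc2a1, Abcb1a and Rgs5 in Amy, and Itm2a in PFC and CC. The number kept was 38 with quantile normalization, 35 with centred arrays, 43 of 47 with the filter on spread, 39 with the most variable probe set, 40 without probe sets of the suffixes _x_at and _s_at, 34 with the methods' t-test, 43 with 1 fit of all arrays, 44 with trend and robust options and 46 with array weights, and 18 without each array in turn. The difference of Acta2 in CC changed sign, to -0.044, without _x_at and _s_at probe sets, as 1 such probe set carried it. The cause of the other changes was not tested.

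The replicate numbers pair no samples by their labels, and same-numbered samples did not deviate together (correlations of -0.06 to 0.03). With the replicate block, 12 of the 48 calls were kept: endothelial calls were 4 in Amy, 0 in Hippo, 2 in PFC and 2 in CC, and mural calls 0 in Hippo and 1 in CC. These endothelial calls were all higher with CMS. Of all genes, 2.79% then rose in Amy, 0.22% in PFC and 1.9% in CC. In Hippo 0% of all genes rose and 0% fell, so the loss there was not particular to endothelial or mural genes.

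Counts of calls, up or down, moved as follows. Endothelial calls in Hippo (8) were 5 with quantile normalization and 4 with centred arrays, and those in CC (7) were 4 with centred arrays, 2 with the t-test and 12 with array weights. Mural calls were 5 in Amy (3) with 1 fit of all arrays, 1 in Hippo (4) with quantile normalization or centring and 7 with array weights, 3 in PFC (0) with array weights, and in CC (2) 1 without _x_at and _s_at probe sets, 1 with the t-test and 4 with array weights. Endothelial genes whose effect differed between areas (11) were 6 with the most variable probe set, beside 47.7% of all genes. The share of all genes called lower in Hippo (24.9%) was 7.09% with quantile normalization and 5.32% with centring. With the t-test 2.84% of all genes rose and 1.54% fell in CC. With array weights 9.02% rose and 43.9% fell in Hippo, 12.2% and 10.4% in PFC and 10.1% and 12% in CC.

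The endothelial median in Amy (0.32) was 0.46 with the filter, 0.42 with the most variable probe set and 0.23 without _x_at and _s_at probe sets. In Hippo (0.02) it was 0.0595 with quantile normalization and 0.0651 with centring, and in PFC (0.14) it was 0.24 with quantile normalization and 0.20 with the most variable probe set. The mural median in Amy (0.22) was 0.20 with quantile normalization, 0.20 with centring, 0.25 with the filter, 0.25 with the most variable probe set and 0.14 without _x_at and _s_at probe sets. In Hippo (-0.12) it was -0.0345, -0.0740 and -0.235 with the first 3 of these and -0.0638 without those probe sets. In PFC (0.01) it was -0.0211 with the most variable probe set, and in CC (-0.05) it was -0.0323, -0.0191, -0.0862 and -0.0590 with the first 4.

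Without 1 array, endothelial calls were 7 to 11 in Amy, 1 to 10 in Hippo, 7 to 9 in PFC and 2 to 4 in CC, and mural calls 2 to 4, 1 to 5, 0 and 0 to 3. The shares of all genes called then moved too, as given above. Endothelial medians were 0.29 to 0.35 in Amy, -0.0123 to 0.0878 in Hippo, where the lowest value came without CMS replicate 2, 0.10 to 0.23 in PFC and 0.04 to 0.10 in CC. Mural medians were 0.15 to 0.24, -0.13 to -0.11, 0.00205 to 0.0170 and -0.0617 to -0.0341. The effect differed between areas for 9 to 11 endothelial and 6 to 7 mural genes, and control areas for 18 to 23 and 6 to 7.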
